A study of Mus musculus with 6 samples.

Results

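TGF-beta pathway transcripts were measured in regulatory T cells (Tregs) sorted from B16.F10 melanoma, for 10 genes taken by name from the 12153 genes in the table. They were the ligand *Tgfb1*, the receptors *Tgfbr1*, *Tgfbr2* and *Tgfbr3*, the signal transducers *Smad2*, *Smad3*, *Smad4* and *Smad7*, and the co-repressors *Ski* and *Skil*, and every one of the 10 had a value in all 6 libraries. B16.F10 is a mouse melanoma cell line, and tumors were taken on day 15 after implantation, dissociated with Liberase TL and DNase I, and sorted by flow cytometry for bulk RNA-Seq. The 3 control libraries came from Nr3c1-flox/flox mice and the 3 *Nr3c1* Foxp3-Cre libraries from Nr3c1-flox/flox mice that also carried Foxp3-YFP/Cre, so floxed *Nr3c1*, the gene of the glucocorticoid receptor (GR), was common to both groups. Cre was driven by the *Foxp3* promoter, so deletion was directed to Foxp3-expressing cells, and other host cells and the implanted tumor cells were not targeted. The comparison addressed which Treg transcripts in tumors differ between these genotypes. As labelled, only the *Nr3c1* Foxp3-Cre group carried the Foxp3-YFP/Cre allele. The allele itself and GR deletion therefore cannot be told apart in any difference below.

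The sample labels give the sorted cells as CD4+CD25+ Tregs, and the study's methods describe a gate on CD4 and Foxp3-YFP after myeloid cells (CD11b, CD11c), B cells (B220), NK cells (NK1.1) and γδ T cells were gated out. Controls as labelled carry no Foxp3-YFP/Cre allele, so a YFP gate could not have sorted them. The labels describe CD4 and CD25 staining for both groups, and if the groups nevertheless were sorted by different gates, gate and genotype cannot be told apart in any difference below. Animal age was not given, mice of both sexes were used in the study, and nothing states whether the 3 libraries of a group came from separate mice. The p-values therefore measure only the spread between these libraries. In bulk libraries, fewer cells of a type and less RNA per cell cannot be told apart.

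TGF-beta is secreted as a latent complex, which Tregs can hold on their surface and activate. The released ligand binds TGFBR2, a kinase that recruits and phosphorylates TGFBR1, and TGFBR1 in turn phosphorylates SMAD2 and SMAD3, which enter the nucleus with SMAD4. TGFBR3, or betaglycan, is a co-receptor without kinase activity that presents ligand to TGFBR2, SMAD7 blocks signaling at the receptor, and SKI and SKIL (SnoN) bind SMAD complexes and hold target genes repressed. In T cells the pathway restrains effector programs and helps to induce and maintain *Foxp3*.

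All values are log2 CPM (read counts scaled to the same total in each library) after quantile normalization by the authors. Read depth is unknown, and the number of libraries limits the precision. *Nr3c1* was between 6.88 and 7.59 in controls and between 5.45 and 6.14 in *Nr3c1* Foxp3-Cre libraries (difference -1.38, SE 0.21; limma adjusted p = 0.120), and *Tsc22d3*, a classic GR target encoding GILZ, differed by -1.56 (SE 0.16; limma adjusted p = 0.0342), both without overlap between groups. Over all genes, 7 had an adjusted p under 0.05, but 0 did without control replicate 3 or without *Nr3c1* Foxp3-Cre replicate 2, and 1 did without *Nr3c1* Foxp3-Cre replicate 1 or 3. The 8 Treg markers were measured in every library and summed to 3550 to 4900 CPM in controls and 3620 to 4230 in *Nr3c1* Foxp3-Cre libraries, and naive or resting T cell markers to 564 to 751 and 531 to 675. *Foxp3* made up 10.45 to 21.44 CPM of the Treg sum in controls and 11.34 to 22.18 in *Nr3c1* Foxp3-Cre libraries. It was named here after its values were seen. Melanoma markers, of which 7 of 7 were measured, summed to 3410 to 9130 CPM in controls and 3800 to 9540 CPM in *Nr3c1* Foxp3-Cre libraries, in cells sorted as Tregs. Fibroblast markers, 6 of 6 measured, summed to 191 to 467 CPM in controls and 79.0 to 173 CPM in *Nr3c1* Foxp3-Cre libraries without overlap, while the 9 macrophage and monocyte markers summed to 371 to 557 and 270 to 540. Sums also overlapped between groups for endothelial (3 of 5 measured, 60.5 to 65.6 and 64.4 to 82.5 CPM, without *Cdh5* and *Tek*), CD8 T cell and NK cell (1 of 4, 7.62 to 15.6 and 10.2 to 12.8, without *Cd8a*, *Ncr1* and *Klrb1c*) and dissociation stress (5 of 5, 1430 to 2100 and 1630 to 1690) markers. Of these marker lists, 0 genes passed an adjusted p of 0.05.

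Promoter sequence from RefSeq (GRCm38.p6, the build that mm10 names) was examined for 5 of the 10 genes, namely *Tgfb1*, *Tgfbr1*, *Tgfbr2*, *Smad3* and *Ski*. No window of *Tgfbr3*, *Smad2*, *Smad4*, *Smad7* or *Skil* was examined, so a lack of RefSeq sequence for them was not shown. The 250 bases before the start are shown for *Tgfbr1* and *Tgfbr2*, the receptor kinases that act as one complex, because the groups did not overlap for *Tgfbr1* and did for *Tgfbr2*. Capitals mark GC boxes, read as GGGCGG on either strand, and SMAD boxes, the short element that SMAD proteins bind, read as CAGAC on either strand. *Tgfbr1* is shown at chr4:47352972-47353221 (plus strand) and *Tgfbr2* at chr9:116175364-116175613 (minus strand).
Tgfbr1: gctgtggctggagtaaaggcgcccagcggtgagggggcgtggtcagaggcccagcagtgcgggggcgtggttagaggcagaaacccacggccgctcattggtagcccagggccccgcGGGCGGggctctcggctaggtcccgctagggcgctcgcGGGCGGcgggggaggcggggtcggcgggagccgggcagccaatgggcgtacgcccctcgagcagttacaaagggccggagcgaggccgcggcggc
Tgfbr2: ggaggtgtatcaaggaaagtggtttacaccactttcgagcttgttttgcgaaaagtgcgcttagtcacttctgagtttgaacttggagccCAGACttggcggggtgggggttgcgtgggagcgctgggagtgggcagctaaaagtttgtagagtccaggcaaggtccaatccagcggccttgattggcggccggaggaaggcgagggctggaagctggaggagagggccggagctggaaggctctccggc
The *Tgfbr1* window was 74.8% G and C, above 95.8% of the 32851 mouse windows of the same length, and held 2 GC boxes, 127 and 89 bases before the start, and 0 SMAD boxes. The *Tgfbr2* window was 58.4% G and C, with 1 SMAD box 155 bases before the start and 0 GC boxes. A second *Tgfbr1* window, at chr4:47385966-47386215, held 1 SMAD box and 0 GC boxes, and the windows of *Tgfb1*, *Smad3* and *Ski* held 5, 2 and 5 GC boxes. A GC box was present in 32.7% of all windows and a SMAD box in 42.2%. The full GR palindrome was searched as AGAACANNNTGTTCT. Its arm, which is part of every palindrome, was searched as AGAACA on either strand. Neither was in the 6 windows examined, and over all windows the palindrome was in 0.00913% and the arm in 16.1%. The matches are of letters in these windows and say nothing of binding.

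Levels were compared between genes per length, which was the merged exon length over all annotated transcripts of a gene. The lengths of the transcripts expressed here are unknown, so the order and ratios depend on this choice. The libraries also held melanoma marker RNA, so these levels may not be those of Tregs alone. In controls, *Smad4* had the highest length-scaled level, 29.6 CPM per kb of exon, followed by *Tgfb1* (13.7), *Ski* (12.4), *Tgfbr2* (12.1), *Smad2* (9.01), *Skil* (7.39), *Smad3* (6.69), *Smad7* (5.45), *Tgfbr1* (2.45) and *Tgfbr3* (0.133), each as a geometric mean of 3 libraries. The libraries of neighbors in this order overlapped for *Tgfb1*, *Ski* and *Tgfbr2*, and again for *Skil*, *Smad3* and *Smad7*. The ranges alone therefore do not order those genes. Within each control library, however, *Smad3* exceeded *Smad7*, by 0.325, 0.234 and 0.33 on the log2 scale in replicates 1, 2 and 3. The libraries of *Smad4* lay above those of every other gene, and those of *Tgfbr1* and *Tgfbr3* below. In *Nr3c1* Foxp3-Cre libraries, *Smad4* (30.5 CPM per kb) again came first and *Tgfbr1* (3.51) and *Tgfbr3* (0.461) last. There the libraries of *Ski*, *Tgfbr2* and *Tgfb1* overlapped along the order, as did those of *Smad2* with *Skil* and of *Smad3* with *Smad7*.

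**Figure D1:**
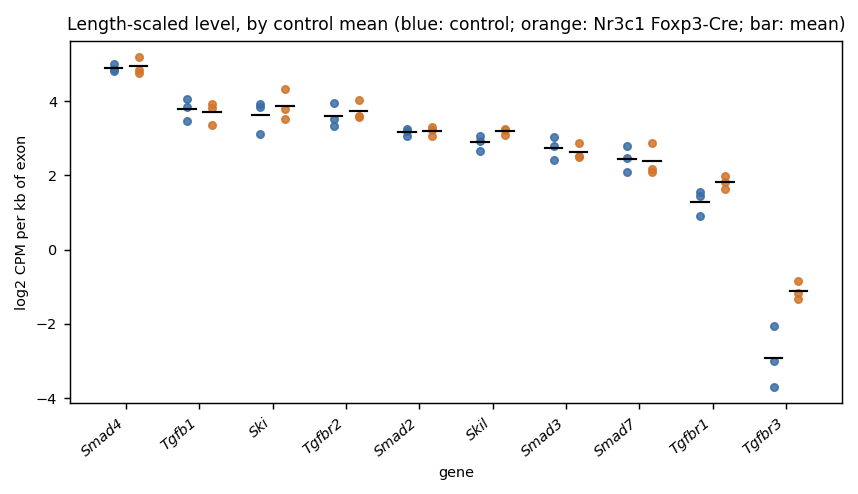
Length-scaled level (log2 CPM per kb of exon) of each of the 10 genes in 3 control (blue) and 3 *Nr3c1* Foxp3-Cre (orange) libraries, ordered by the control mean, with bars at the mean of each group. *Smad4* is highest at a control mean of 4.89, and *Tgfbr3* is lowest at -2.91, well below *Tgfbr1* at 1.29.

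The receptor transcripts were thus present at unequal levels in these libraries. On the length-scaled log2 scale, *Tgfbr2* exceeded *Tgfbr1* by 1.79, 3.05 and 2.09 in control replicates 1, 2 and 3, and by 2.05, 1.76 and 1.94 in *Nr3c1* Foxp3-Cre replicates 1, 2 and 3. These are mean ratios of 4.95 and 3.78, and the groups overlapped. In controls the excess was smaller where melanoma marker sums were higher (9130, 6850 and 3410 CPM in replicates 1, 3 and 2). The *Nr3c1* Foxp3-Cre libraries did not follow this order throughout. The part of tumor RNA in these ratios was not tested. *Tgfbr1* exceeded *Tgfbr3* by 3.60, 4.60 and 4.42 in controls and by 3.13, 2.68 and 2.98 in *Nr3c1* Foxp3-Cre libraries, mean ratios of 18.4 and 7.63. The co-receptor was therefore the scarcest of the 3 TGF-beta receptor transcripts in each library. Among the transducers, *Smad2* exceeded *Smad3* by 0.43 ± 0.32 (SD, n = 3) in controls and 0.57 ± 0.21 (SD, n = 3) in *Nr3c1* Foxp3-Cre libraries, and *Smad3* exceeded the inhibitor *Smad7* on average by 0.30 ± 0.054 and 0.25 ± 0.23. In *Nr3c1* Foxp3-Cre replicate 1, however, *Smad3* minus *Smad7* was -0.011. *Ski* exceeded *Skil* by 0.74 ± 0.26 and 0.69 ± 0.52. No test was made on these ratios.

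*Tgfb1* encodes the TGF-beta ligand that T cells themselves make (ENSMUSG00000002603.15, chr7:25687002-25705077, plus strand, mm10). It was 5.80, 6.38 and 6.17 log2 CPM in control replicates 1, 2 and 3, and 6.25, 5.70 and 6.13 in *Nr3c1* Foxp3-Cre replicates 1, 2 and 3. Control replicate 1 and *Nr3c1* Foxp3-Cre replicate 2 were the low libraries, and the groups overlapped. The means were 6.11 ± 0.29 and 6.03 ± 0.29 (SD, n = 3 each), a difference of -0.089 (95% interval -0.50 to 0.33; exact permutation p = 0.6; limma adjusted p = 1.0). A change of the ligand of up to 0.50 lower or 0.33 higher on the log2 scale was within this interval.

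Of the 3 receptors, *Tgfbr1* and *Tgfbr3* were higher in every *Nr3c1* Foxp3-Cre library than in every control library, and *Tgfbr2* overlapped. None of the 3 passed the limma test after Benjamini-Hochberg adjustment over all genes (adjusted p = 1.0 each). *Tgfbr1*, the type I receptor kinase also known as ALK5 (ENSMUSG00000007613.15, chr4:47353222-47414931, plus strand), was 4.25, 3.61 and 4.14 in control replicates 1, 2 and 3, and 4.68, 4.54 and 4.35 in *Nr3c1* Foxp3-Cre replicates 1, 2 and 3. Control replicate 2 was low, and the highest control and the lowest *Nr3c1* Foxp3-Cre library were 0.0998 apart. The means were 4.0 ± 0.34 and 4.52 ± 0.17 (SD, n = 3 each), a difference of 0.52 (SE 0.21, 95% interval 0.053 to 0.99), or 1.44-fold higher, with an unadjusted limma p of 0.0329. An exact two-sided permutation test gave p = 0.1, the smallest that 3 libraries against 3 allow. The unadjusted limma p was 0.119 without control replicate 2 (difference 0.33), 0.107 when *Nr3c1* Foxp3-Cre replicate 1 was left out (0.44), and 0.0679 when replicate 2 of that group was left out (0.51).

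*Tgfbr3*, which encodes betaglycan (ENSMUSG00000029287.14, chr5:107106570-107289629, minus strand), had the largest difference of the 10 genes. It was 0.65, -0.98 and -0.28 log2 CPM in control replicates 1, 2 and 3, and 1.55, 1.86 and 1.37 in *Nr3c1* Foxp3-Cre replicates 1, 2 and 3. The controls spread widely, the *Nr3c1* Foxp3-Cre libraries lay close together, and 0.723 separated the groups. On the linear scale the ranges were 0.506 to 1.57 CPM and 2.59 to 3.63 CPM, on both sides of the 1 CPM below which the authors state that genes were removed, and its mean log2 level was higher than that of 3.84% of the genes in the table. The means were -0.20 ± 0.82 and 1.59 ± 0.25 (SD, n = 3 each), a difference of 1.80 (SE 0.48, 95% interval 0.705 to 2.89), or 3.47-fold higher, with an unadjusted limma p of 0.00461 and an exact permutation p of 0.1. With a control mean of 0.868 CPM, the gene may be in the table only through the *Nr3c1* Foxp3-Cre libraries, in which it was high, so its place among the tested genes, and in counts of them, depends on that filter. By the size of its difference *Tgfbr3* ranked 66 of 12153 genes. On the log2(CPM + 1) scale the difference was 1.07, with an unadjusted limma p of 0.00284.

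Within each group, the libraries with more melanoma marker signal had more *Tgfbr3*: control replicates 1, 3 and 2 in falling order, at 9130, 6850 and 3410 CPM of melanoma markers, and *Nr3c1* Foxp3-Cre replicates 2, 1 and 3, at 9540, 6190 and 3800 CPM. Between the groups the melanoma markers overlapped, and with the mean of these markers as a term in the fit the *Tgfbr3* difference was 1.84 (limma adjusted p = 0.217, and 0.132 to 1.0 over all alternatives). Fibroblast marker sums were lower in *Nr3c1* Foxp3-Cre libraries, opposite in direction to *Tgfbr3*. The endothelial marker *Pecam1*, named after its values were seen, was higher in each of those libraries than in every control, the direction of *Tgfbr3* (difference 0.28, SE 0.12, with an unadjusted limma p of 0.0436). The endothelial markers *Kdr* (difference -0.13, SE 0.87) and *Egfl7* (0.195, SE 0.26), also named after their values were seen, overlapped between the groups. Endothelial sums overlapped at 60.5 to 65.6 and 64.4 to 82.5 CPM. The part of fibroblasts and endothelial cells in the *Tgfbr3* values was not tested. Of the *Tgfbr3* exon bases, 4.54% lie under the same-strand gene model *Gm43422*, which has no value here.

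*Tgfbr2*, the type II receptor kinase (ENSMUSG00000032440.13, chr9:116084293-116175360, minus strand), was 6.36, 6.98 and 6.55 in control replicates 1, 2 and 3, and 7.05, 6.62 and 6.62 in *Nr3c1* Foxp3-Cre replicates 1, 2 and 3. Control replicate 2 and *Nr3c1* Foxp3-Cre replicate 1 were the high libraries, and the groups overlapped. The means were 6.63 ± 0.32 and 6.76 ± 0.25 (SD, n = 3 each), a difference of 0.13 (SE 0.18, 95% interval -0.27 to 0.53; exact permutation p = 0.5). The intervals of *Tgfbr1* and *Tgfbr2* overlapped each other, and a difference between their changes was not tested.

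The 4 SMAD genes overlapped between the groups, and none passed the test (limma adjusted p = 1.0 each). *Smad2*, a transducer that TGFBR1 phosphorylates (ENSMUSG00000024563.16, chromosome 18), was 6.34, 6.39 and 6.20 in control replicates 1, 2 and 3, and 6.36, 6.20 and 6.43 in *Nr3c1* Foxp3-Cre replicates 1, 2 and 3. Its 6 libraries lay closer together than those of any other of the 10 genes, and its difference was 0.026 (SE 0.11, 95% interval -0.22 to 0.28; exact permutation p = 0.7). *Smad3*, the other transducer of TGF-beta receptors, which binds DNA directly (ENSMUSG00000032402.12, chr9:63646767-63757994, minus strand), was 4.87, 5.49 and 5.27 in controls and 5.34, 4.97 and 4.99 in *Nr3c1* Foxp3-Cre libraries, in replicate order. Control replicate 1 was lowest and control replicate 2 highest, and the difference was -0.11 (SE 0.19, 95% interval -0.53 to 0.31; exact permutation p = 0.7).

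*Smad4*, the partner shared with the BMP branch (ENSMUSG00000024515.13, chromosome 18), was 6.69, 6.90 and 6.75 in control replicates 1, 2 and 3, and 7.07, 6.74 and 6.66 in *Nr3c1* Foxp3-Cre replicates 1, 2 and 3. *Nr3c1* Foxp3-Cre replicate 1 was the highest library and the groups overlapped, with a difference of 0.043 (SE 0.13, 95% interval -0.25 to 0.33; exact permutation p = 0.9). *Smad7*, the inhibitory SMAD that TGF-beta signaling itself induces (ENSMUSG00000025880.11, chromosome 18), was 4.26, 4.96 and 4.65 in controls and 5.06, 4.27 and 4.33 in *Nr3c1* Foxp3-Cre libraries, in replicate order. The spread within each group was wider than the gap between the means, which were 4.62 ± 0.35 and 4.55 ± 0.44 (SD, n = 3 each). The difference was -0.069 (SE 0.25, 95% interval -0.64 to 0.50; exact permutation p = 1.0), so a change of up to 0.64 lower or 0.50 higher on the log2 scale lay within the interval.

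The co-repressors were both higher on average in *Nr3c1* Foxp3-Cre libraries, and neither passed the test (limma adjusted p = 1.0 each). *Ski* (ENSMUSG00000029050.15, chr4:155154075-155222592, minus strand) was 5.60, 6.39 and 6.32 in control replicates 1, 2 and 3, and 6.81, 6.26 and 5.98 in *Nr3c1* Foxp3-Cre replicates 1, 2 and 3. Control replicate 1 and *Nr3c1* Foxp3-Cre replicate 1 were the extremes, and the groups overlapped (means 6.10 ± 0.44 and 6.35 ± 0.42, SD, n = 3 each). The difference was 0.24 (SE 0.25, 95% interval -0.32 to 0.81; exact permutation p = 0.6). *Skil*, which encodes SnoN and is also a target of the pathway (ENSMUSG00000027660.16, chr3:31095058-31122577, plus strand), was 5.94, 6.21 and 6.34 in controls and 6.35, 6.51 and 6.52 in *Nr3c1* Foxp3-Cre libraries, in replicate order. Every *Nr3c1* Foxp3-Cre library was above every control library, but by a gap of only 0.0136. The means were 6.16 ± 0.20 and 6.46 ± 0.095 (SD, n = 3 each), a difference of 0.30 (SE 0.13, 95% interval 0.0096 to 0.58), or 1.23-fold higher, with an unadjusted limma p of 0.0441 and an exact permutation p of 0.1. The unadjusted limma p for *Skil* was 0.184 under sample quality weights (difference 0.15), and 0.165 without control replicate 1 (0.18).

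**Figure D2:**
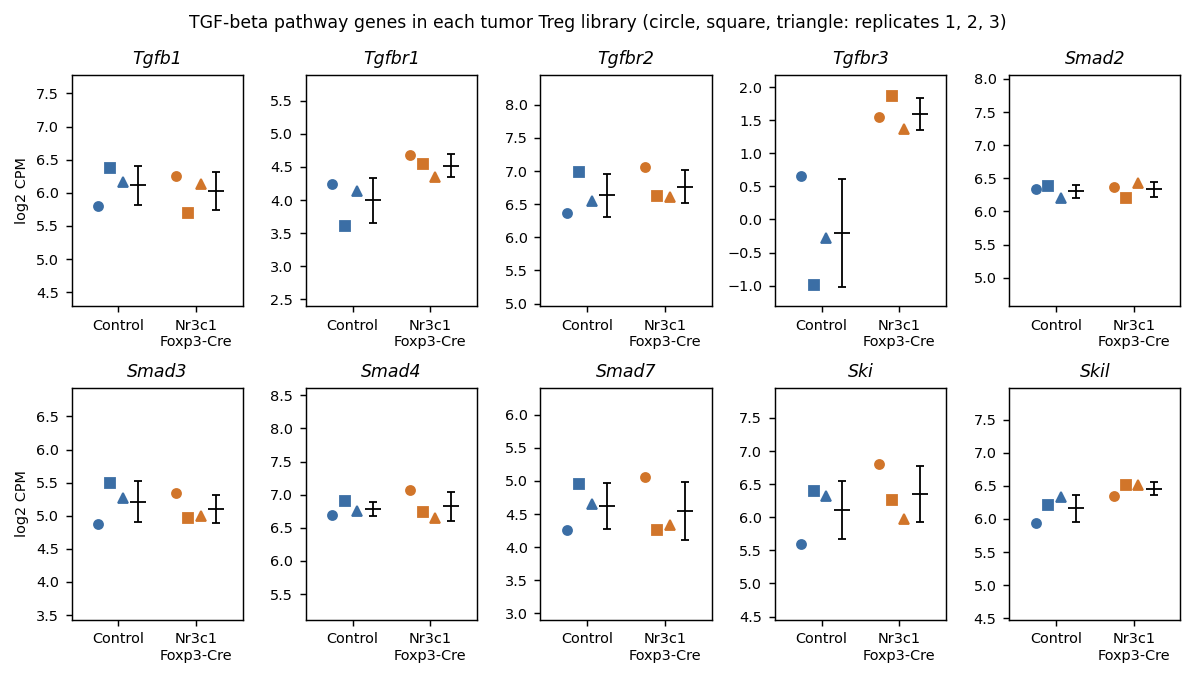
Values of the 10 genes (log2 CPM) in the 3 control (blue) and 3 *Nr3c1* Foxp3-Cre (orange) libraries, with circles, squares and triangles for replicates 1, 2 and 3 and black bars for mean ± SD of each group. Every panel spans the same log2 range. *Tgfbr3* is separated by 0.723, *Tgfbr1* by 0.0998 and *Skil* by 0.0136, and the other genes overlap.

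Counted over the 10 genes, 0 had an adjusted p under 0.05 by limma, against 0.0576% of all 12153 genes. At an unadjusted p under 0.05, 3 of 10 (30.0%) were called, *Tgfbr1*, *Tgfbr3* and *Skil*, all higher in *Nr3c1* Foxp3-Cre libraries, against 3.26% of all genes in either direction and 1.61% that were higher. The same 3 genes had no overlap between the groups, against 7.41% of all genes in either direction and 3.69% that were higher. *Tgfbr3* may have passed the filter on low values only through the group in which it was high, and apart from it 2 of the other 9 genes were counted in each case. The median difference of the 10 genes was 0.087, with 7 higher and 3 lower, against a median of -0.0014 over all genes, and their median absolute difference was 0.122 against 0.108. The median was -0.0023 when control replicate 1 was left out and -0.001 when *Nr3c1* Foxp3-Cre replicate 1 was left out. The count at an unadjusted p was 1, *Tgfbr3*, without control replicate 2 or without *Nr3c1* Foxp3-Cre replicate 2. The genes were chosen by their place in the pathway with earlier results of these libraries known, and they are not independent of each other. The study had already named *Tgfbr1* and *Tgfbr3* as overexpressed in tumor Tregs without GR, so these counts are no separate support for either gene.

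**Figure D3:**
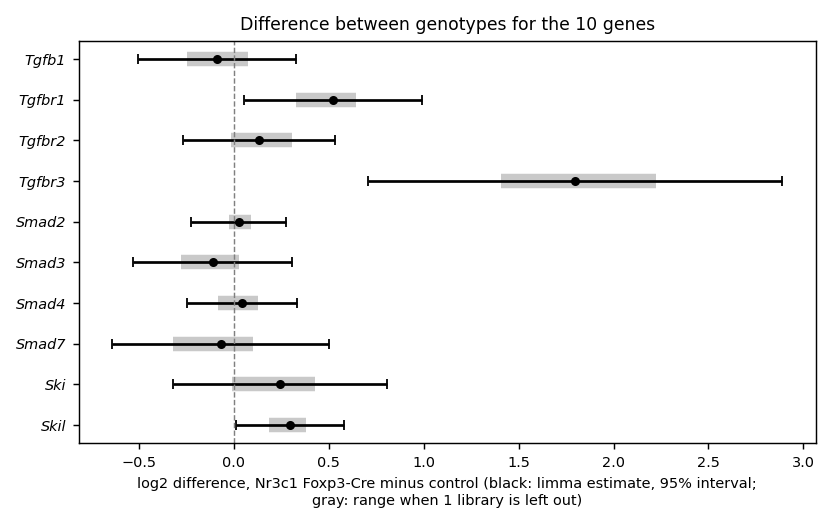
Difference between the groups for each of the 10 genes (log2, *Nr3c1* Foxp3-Cre minus control), with black points and bars for the limma estimate and its 95% interval and gray bars for the range of estimates when 1 library is left out. The intervals of *Tgfbr1*, *Tgfbr3* and *Skil* lie above 0, at 0.053 to 0.99, 0.705 to 2.89 and 0.0096 to 0.58, and those of the other genes include 0.

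The libraries differed within each group in a way that many of these genes shared. Control replicate 1 was the lowest control for 7 of the 10 genes and control replicate 2 the highest for 7, against 39.1% of all genes for each. *Tgfb1*, *Tgfbr2*, *Smad3*, *Smad4*, *Smad7* and *Ski* showed this order, and *Tgfbr1* and *Tgfbr3* had the opposite one, with control replicate 1 highest and control replicate 2 lowest. Among *Nr3c1* Foxp3-Cre libraries, replicate 1 was highest for 7 of 10, against 29.8% of all genes, and those were the 6 genes just named with *Tgfbr1*. *Smad7* deviated from its group mean by -0.37 in control replicate 1, 0.34 in control replicate 2 and 0.50 in *Nr3c1* Foxp3-Cre replicate 1, and *Ski* by -0.51, 0.29 and 0.46. The mean of melanoma markers deviated by 0.57 in control replicate 1 and by -0.81 in control replicate 2, the order of *Tgfbr1* and *Tgfbr3* and the reverse of that of *Smad7* in controls. In *Nr3c1* Foxp3-Cre replicates 1, 2 and 3 it deviated by 0.11, 0.57 and -0.68, an order shared by *Tgfbr3* but not by *Tgfbr1*, and not the reverse of that of *Smad7*. Its part in these deviations was not tested. With 1 library left out, the sign of the difference changed in at least 1 case for the 7 genes other than *Tgfbr1*, *Tgfbr3* and *Skil*.

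**Figure D4:**
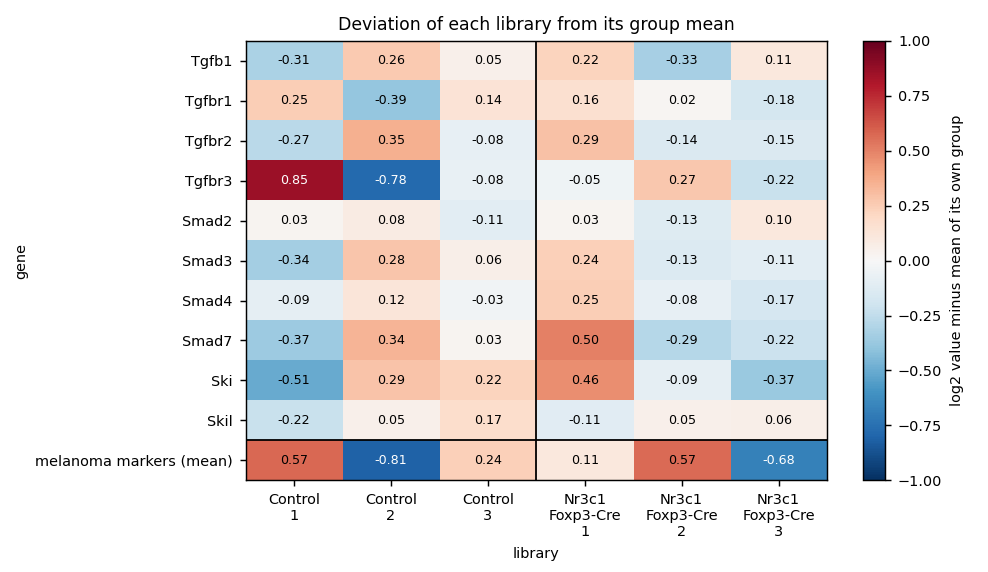
Deviation of each library from the mean of its own group (log2, color and printed value) for the 10 genes and, in the bottom line, for the mean of the melanoma markers. Control replicate 1 is below its group mean for most genes but above it for *Tgfbr3* (0.85) and the melanoma markers (0.57), and control replicate 2 shows the reverse (-0.78 and -0.81).

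The rest of the pathway was read from a list of 73 gene symbols, of which 59 had a value and 14 did not, among them *Ctgf*, the older symbol of *Ccn2*. Of the 59 genes, 0 had an adjusted p under 0.05 by limma (lowest adjusted p = 0.544), and 4 (6.78%) had an unadjusted p under 0.05, *Wwp1* and *Klf10* higher and *Tgfbi* and *Id2* lower in *Nr3c1* Foxp3-Cre libraries, against 3.26% of all genes. When the mean of the melanoma markers was a term in the fit, 1 gene, *Id2*, had an adjusted p under 0.05 (limma adjusted p = 0.042, and 0.042 to 1.0 over all alternatives). Groups did not overlap for 9 of the 59 genes (15.3%), 6 higher and 3 lower, against 7.41% of all genes in either direction and 3.69% that were higher. The median difference was -0.017, with 27 higher and 32 lower, and the median absolute difference was 0.131. The number at an unadjusted p under 0.05 was 2 without *Nr3c1* Foxp3-Cre replicate 2 (*Klf10* and *Id2*).

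Among the 10 measured genes of other ligands and release from latency, 0 had an unadjusted p under 0.05 and the median difference was -0.10. *Lrrc32*, which encodes GARP, the surface anchor of latent TGF-beta on Tregs, was at 7.20 ± 0.42 in controls and 7.21 ± 0.32 in *Nr3c1* Foxp3-Cre libraries (SD, n = 3 each), a difference of 0.0099 (SE 0.22). *Nrros*, which anchors latent TGF-beta in other leukocytes, differed by 0.048 (SE 0.090). *Tgfb2* differed by 1.22 (SE 0.67) at control and *Nr3c1* Foxp3-Cre means of 0.474 and 1.11 CPM, and *Thbs1*, an activator of latent TGF-beta, by -0.83 (SE 0.42). The groups overlapped for each of these 4 genes.

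The 7 measured receptors of the activin and BMP branches had 0 genes with an unadjusted p under 0.05 and a median difference of -0.13. *Acvr1* differed by -0.45 (SE 0.36), *Bmpr2* by -0.22 (SE 0.37), *Eng*, a co-receptor related to betaglycan, by -0.15 (SE 0.36), and the pseudoreceptor *Bambi* by -0.081 (SE 0.17). The groups overlapped for *Eng* and not for *Tgfbr3*, and the difference between their changes was not tested.

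Among 16 measured genes for other SMADs and regulators of receptors and SMADs, 1 (6.25%) had an unadjusted p under 0.05, against 3.26% of all genes, and the median difference was 0.070. Groups did not overlap for 4 (25.0%, against 7.41% of all genes), of which 3 were higher (*Wwp1*, and *Smurf1* and *Rnf111*, named after their values were seen) and 1, *Smurf2*, was lower. The ubiquitin ligase gene *Wwp1* was 4.12, 4.06 and 4.25 in controls and 4.41, 4.58 and 4.58 in *Nr3c1* Foxp3-Cre libraries, in replicate order, without overlap (difference 0.38, SE 0.16, with an unadjusted limma p of 0.0385, and between 0.0406 and 0.0974 with 1 library left out). *Smurf2*, another ubiquitin ligase gene whose product SMAD7 brings to the receptor, was 3.63, 3.73 and 3.59 in controls and 3.58, 2.94 and 2.93 in *Nr3c1* Foxp3-Cre libraries, with a difference of -0.50 (SE 0.24). Its unadjusted limma p was 0.0648, and the groups were only 0.0112 apart. Of the related ligase genes on this list, *Wwp1*, *Smurf1* (0.16, SE 0.12) and *Nedd4l* (0.050, SE 0.31) were higher on average. *Nedd4l*, named after its values were seen, overlapped between the groups. *Fkbp1a*, whose product holds TGFBR1 inactive without ligand, differed by -0.037 (SE 0.094), and *Strap* by -0.041 (SE 0.11).

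Of the 12 measured genes listed as induced by TGF-beta, 3 (25.0%) had an unadjusted p under 0.05, in both directions, against 3.26% of all genes. The median difference was 0.072. The share depends on the place of *Id2* in this list. *Id2*, an inhibitor of E proteins that is better known as a BMP target, was 9.09, 9.64 and 9.22 in controls and 8.78, 8.47 and 8.64 in *Nr3c1* Foxp3-Cre libraries, in replicate order. Every *Nr3c1* Foxp3-Cre library was below every control (difference -0.69, SE 0.15, with an unadjusted limma p of 0.00122 and an adjusted p of 0.544). *Klf10*, an early TGF-beta target encoding a transcription factor, was 5.88, 6.20 and 6.17 in controls and 6.38, 6.29 and 6.55 in *Nr3c1* Foxp3-Cre libraries, higher in each (difference 0.32, SE 0.13, with an unadjusted limma p of 0.0308). *Tgfbi*, a matrix protein gene also expressed by fibroblasts and macrophages, was 3.14, 3.01 and 3.28 in controls and 2.86, 1.93 and 2.61 in *Nr3c1* Foxp3-Cre libraries, lower in each (difference -0.67, SE 0.29, with an unadjusted limma p of 0.0463). With 1 library left out, its unadjusted limma p was between 0.0248 and 0.157, and its difference fell in size to -0.40 when *Nr3c1* Foxp3-Cre replicate 2 was left out, while the p for *Klf10* was between 0.0235 and 0.116. *Ccn2*, likewise a matrix gene, differed by -1.77 (SE 1.0) and had an SD of 2.51 among the *Nr3c1* Foxp3-Cre libraries. It was -0.36 when *Nr3c1* Foxp3-Cre replicate 2 was left out and -2.78 when replicate 1 of that group was left out. The fibroblast marker sums were lower in the same libraries. Among *Nr3c1* Foxp3-Cre replicates 1, 2 and 3 these sums were 79.0, 173 and 113 CPM, while *Tgfbi* and *Ccn2* were lowest in replicate 2. The part of fibroblasts in *Tgfbi* and *Ccn2* was not tested. *Junb*, the most abundant gene of this list, differed by 0.22 (SE 0.15), and *Foxp3*, named as the defining Treg factor after its values were seen, by 0.053 (SE 0.32).

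The remaining lists held 0 genes with an unadjusted p under 0.05. Of the 5 measured genes that TGF-beta represses in T cells (median difference -0.017), *Gzmb*, which encodes granzyme B, differed by -0.30 (SE 0.15), *Ifng* by 0.20 (SE 0.18) and *Gata3* by -0.055 (SE 0.21). Of the 9 kinases and adaptors outside the SMAD branch (median difference 0.13), groups did not overlap for 2 (22.2%), both higher, against 7.41% of all genes in either direction and 3.69% that were higher. They were *Mapk8*, which encodes JNK1 (difference 0.27, SE 0.29), and *Map3k7*, which encodes TAK1 and was named after its values were seen (difference 0.19, SE 0.10). *Tab3* differed by 0.34 (SE 0.28), *Rhoa* by -0.098 (SE 0.12) and *Mapk14*, which encodes a p38 kinase, by -0.035 (SE 0.12).

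**Figure D5:**
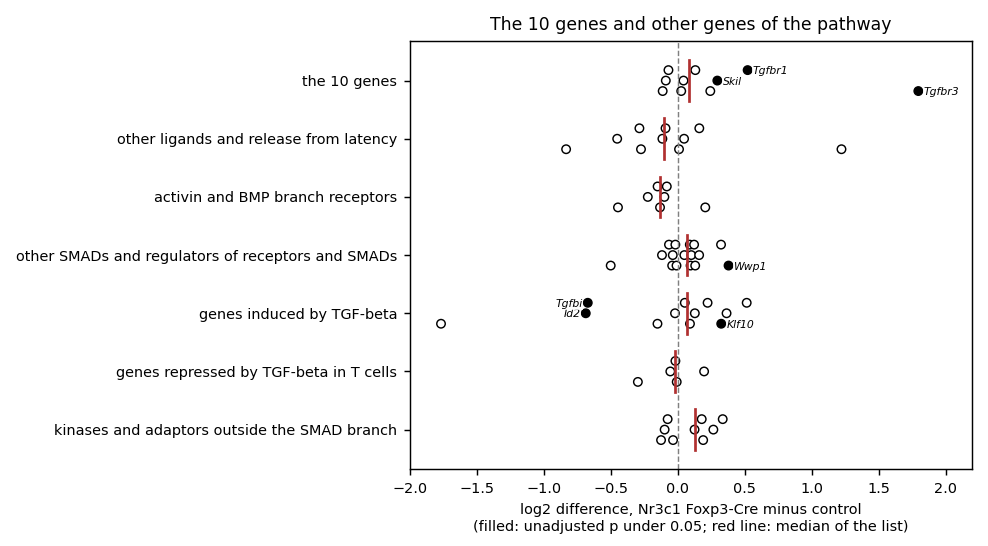
Differences (log2, *Nr3c1* Foxp3-Cre minus control) of the 10 genes and of 59 other pathway genes by list, with filled points for an unadjusted limma p under 0.05 and red lines at the median of each list. *Tgfbr3* is the point farthest to the right at 1.80, *Ccn2* is farthest to the left at -1.77 (-0.36 without *Nr3c1* Foxp3-Cre replicate 2), and the medians of the lists lie between -0.13 and 0.13.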

How the data were processed

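Gene expression was measured in 3 control and 3 *Nr3c1* Foxp3-Cre libraries of tumor Tregs, grouped by the titles and genotypes in the labels. cDNA was made with a SMARTer ultra-low input kit and Nextera XT, which do not mark strand. By the authors' methods, adapters were removed by Cutadapt, STAR placed the reads on mm10, and RSEM estimated expression over GENCODE M21, after which genes under 1 CPM were dropped, the libraries were quantile normalized and limma-voom was run. Values deposited by the authors are the resulting log2 CPM per gene. They hold no counts, so voom weights could not be rebuilt, the depth of each library is unknown and counting error is not given.

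The fit of genotype used limma 3.58.1 (R 4.3.3) on all 12153 genes, with lmFit and with eBayes under a mean-variance trend, no other term, and p-values adjusted over the whole table by Benjamini-Hochberg at 0.05. It was tested on simulated data. Single genes were also compared by an exact two-sided permutation test, with a smallest p of 0.1. Lengths and positions came from GENCODE M21, which matched 12130 genes by identifier, and promoters from RefSeq.

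The 10 genes, the pathway and marker lists and the tests were chosen with earlier results of these data known. All 10 genes are named. From each pathway list, the genes named were the 2 with the largest absolute difference, the 2 with the highest mean level, and any with an adjusted or unadjusted p under 0.05. Genes named outside this rule are marked as such. *Nr3c1* and *Tsc22d3* served to check the labels. The result of 1 marker list is not reported here. The 16 alternatives were fits without a trend, with robust eBayes, with vooma weights and with sample quality weights, a filter at a mean log2 value of 1, log2(CPM + 1), cyclic loess, subtraction of each library's median over genes whose mean log2 value was 5 or more, the melanoma markers as a covariate, a block for the replicate number, and omission of each of the 6 libraries in turn.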

Additional observations from a re-analysis of the deposited data

How the results depend on the processing

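Across the 16 alternatives, 0 of the 10 genes passed an adjusted p of 0.05 by limma, and *Tgfbr1*, *Tgfbr3* and *Skil* kept a higher value in *Nr3c1* Foxp3-Cre libraries wherever they were fitted. *Tgfbr3* was between 1.07 and 1.84 over the other settings and 1.41 and 2.22 with 1 library left out, but it was removed by the minimum mean log2 value of 1. *Tgfbr1* was between 0.40 and 0.54, and 0.33 and 0.65, and *Skil* between 0.15 and 0.30, and 0.18 and 0.38. The number of the 10 genes with an unadjusted p under 0.05 was between 2 and 3 over the other settings and between 1 and 3 with 1 library left out, and the number without overlap between groups between 2 and 3, and 3 and 4. The median difference of the 10 genes was between 0.0433 and 0.10 over the other settings and between -0.0023, without control replicate 1, and 0.21 with 1 library left out. With 1 library left out, differences that changed sign ranged from -0.25 to 0.076 for *Tgfb1*, -0.014 to 0.31 for *Tgfbr2*, -0.028 to 0.091 for *Smad2*, -0.28 to 0.026 for *Smad3*, -0.081 to 0.13 for *Smad4*, -0.32 to 0.10 for *Smad7* and -0.010 to 0.43 for *Ski*. In all, 13 of 159 values for the 10 genes and 19 of 383 for the 24 named pathway genes changed sign.

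Over all genes, 7 were called at an adjusted p of 0.05, 0 without a trend, 19 with sample quality weights, which gave control replicate 3 a weight of 7.47 against 0.52 to 0.86 for the others, 18 with the melanoma covariate, and 0 to 8 with 1 library left out. Of the other pathway genes, 1 was called with the melanoma covariate. The number with an unadjusted p under 0.05 was 9 with sample quality weights, 8 with the melanoma covariate and between 2 and 6 with 1 library left out. With sample quality weights the sign changed for *Lrrc32* (-0.11), *Bmpr2* (0.19), *Bambi* (0.068), *Fkbp1a* (0.027), *Gata3* (0.020) and *Mapk14* (0.034), and with the melanoma covariate for *Lrrc32* (-0.00043). With 1 library left out the ranges were -0.23 to 0.17 for *Lrrc32*, -0.54 to 0.15 for *Eng*, -0.075 to 0.024 for *Fkbp1a*, -0.13 to 0.031 for *Strap*, -0.26 to 0.19 for *Gata3* and -0.14 to 0.036 for *Mapk14*. The cause of these changes was not tested.

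Both groups carry replicate numbers 1 to 3, but nothing states that a number marks a shared batch. The correlations of deviations from the group means between same-numbered libraries were -0.117, -0.329 and -0.0246, so the pairing was not used, and no library correlated best with its own number. Blocking on the replicate number, 0 genes were called at an adjusted p of 0.05, and 2 of the other pathway genes, *Thbs1* and *Id2*, had an unadjusted p under 0.05. The block gave *Tgfbr3* an unadjusted limma p of 0.011, *Tgfbr1* of 0.0493 and *Skil* of 0.0556.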
